A study of Mus musculus with 77 samples.

Results

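Retinas of mice with oxygen-induced retinopathy (OIR) were compared with retinas of mice raised in room air on postnatal day 17 (P17), when pathological vessel growth peaks in this model. The comparison used 25 of the 77 arrays of the series, 13 of P17 OIR mice and 12 of P17 control mice, each array holding the pooled retinas of 1 mouse. All animals were C57BL/6 pups, and on P7 whole litters were drawn for either hyperoxia, at 75% oxygen, or normoxia, which is room air at 21%. The OIR pups stayed in 75% oxygen until P12 and then in room air, so on P17 they had been back in room air since P12. The other arrays came from P12 and P28 mice of the same design. The litter of a mouse is not given, so p-values measure the spread between mice without a term for litter.

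In this model high oxygen stops and prunes the growing capillaries of the central retina. After return to room air the avascular retina becomes hypoxic, hypoxia-inducible factors raise angiogenic signals such as vascular endothelial growth factor, and new vessels grow, partly as abnormal tufts towards the vitreous. Glial cells respond to the injury with intermediate filaments and inflammatory signals, and the inner retina, which the lost capillaries supply, holds the amacrine, bipolar and ganglion neurons.

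Each array measured retina RNA in 1 dye and a commercial universal mouse reference RNA, common to all arrays, in the other. By the labels Cy5 should hold the retina and Cy3 the reference RNA, but on each of the 25 arrays all 24 rod photoreceptor genes of the marker list were brighter in Cy3. Sag, Gnat1 and Pde6b, strongly expressed rod genes, exceeded Cy5 by at least 4.98 on the log2 scale on every array. Retina was therefore read from Cy3, and every ratio below is retina over reference. Unless another measure is named, a level is the log2 ratio after background correction with an offset of 50 and loess normalization, here called the offset ratio. The offset draws the ratios of dim spots towards 0, so the ratio the authors deposited, which carries no such offset, and the retina channel alone are alternatives. The deposited log2 difference was over 1.5 times the offset difference for 36 of 94 called genes chosen for naming, and it is given for those described below.

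A set of 5 arrays stood apart in signal, and the values without them are an alternative chosen after seeing the data. On 2 OIR arrays and 3 control arrays the 90th percentile of the raw retina signal was 954 to 1498, against 91.5 to 340 (raw intensity) on the other 20. Their rod genes had a lower mean deposited ratio, 4.56 to 5.39 against 6.00 to 7.24. The scanner software put 13801 to 30010 probes of an array clearly over background in Cy3. The arrays lay on 10 slides, of which 6 held both groups (12 OIR and 8 control arrays). By Xist and Y-linked probes 4 of 13 OIR mice and 6 of 12 control mice were female.

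Of 55681 non-control probes, 631 (1.13%) passed the test, with an adjusted p under 0.05 in limma over all probes, and are called here. Taking for each of 21154 genes its brightest probe, 347 (1.64%) were higher and 136 (0.643%) lower in OIR retinas. These shares are the background for every count of called list members in the offset ratio below. The 2 groups did not overlap in 59 genes that were higher (0.279% of genes) and in 4 that were lower (0.0189%), which were Spc25, Fabp3, Rgs3 and Ebf1. The OIR mean was above the control mean on all 6 mixed slides for 316 of the 347 higher genes, and below it for 126 of the 136 lower genes. Higher calls also passed in the deposited ratio for 320 genes, in the retina channel alone for 317, and with slide as a block for 298, and 80.4% of them passed without the 5 bright arrays. For the lower calls the counts were 101, 118 and 100, and the share was 69.1%. With slide as a block 2.05% of all genes were called higher and 1.04% lower, and without the bright arrays 1.87% and 1.21%. Median centring in place of loess left 4 probes called. Higher calls made up 70.8% of called probes, but 53.0% in the retina channel alone and 54.4% after quantile normalization of the ratios between arrays. In whole retina, fewer cells of a type and less RNA per cell cannot be told apart.

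**Figure D1:**
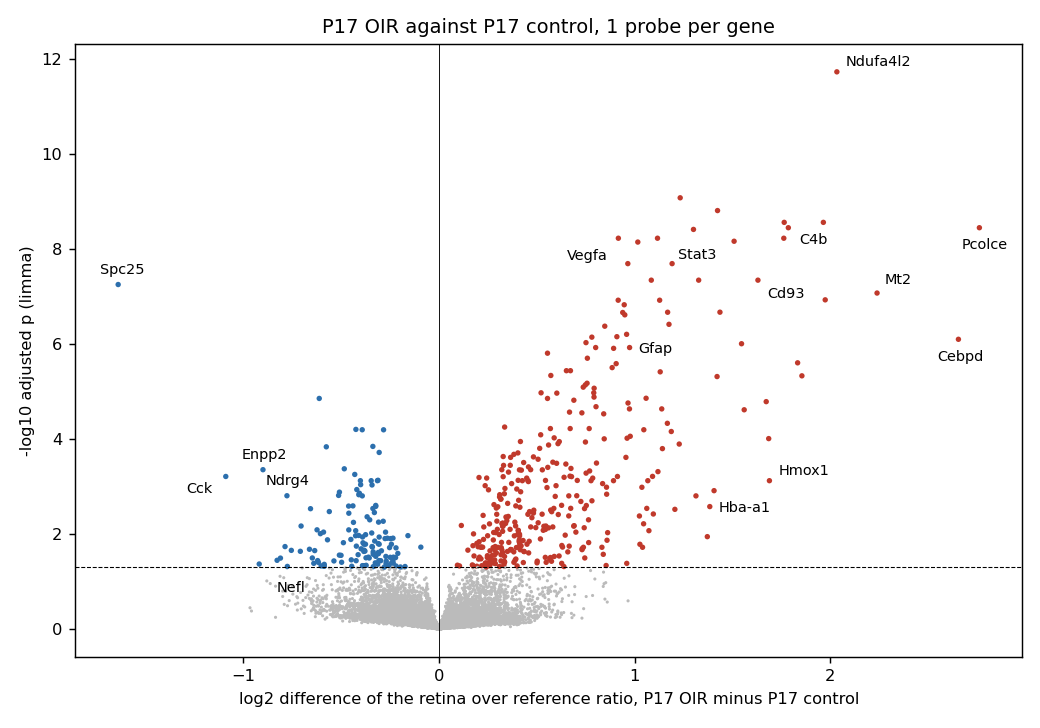
Log2 difference between P17 OIR and P17 control retinas (x axis) against -log10 of the adjusted p (y axis) for 21154 genes, 1 probe each; red points are the 347 genes called higher, blue points the 136 called lower, grey points were not called, and the dashed line is an adjusted p of 0.05. The rises reach 2.76 on the log2 scale, whereas among the falls only Spc25, at -1.64, exceeds 1.09 in size.

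Rises in the hypoxia list included a mitochondrial gene and secreted factors. Of 29 measured genes of the hypoxia list 9 rose (1.64% of all genes did) and none fell. The median log2 difference of the list was 0.26, against 0.00 over all genes. Ndufa4l2, a hypoxia-induced mitochondrial protein that lowers complex I activity, ranged over 0.09 to 0.75 (median 0.55) in control retinas and over 2.09 to 3.05 (median 2.55) in OIR retinas. Its lowest OIR retina lay above its highest control retina, and the difference was 2.03 ± 0.10 (SE, adjusted p = 1.8e-12). Ndufa4l2 was also the single probe called in the reference channel, where it was 0.69 higher on OIR arrays, although the reference RNA was the same. Its difference was 2.76 in the retina channel alone and 1.45 in the deposited ratio. Vegfa, the main angiogenic ligand, ranged over -0.73 to -0.19 (median -0.40) in control and 0.26 to 0.82 (median 0.53) in OIR retinas. The groups were fully separate, by 0.97 ± 0.08 (SE, adjusted p = 2e-08), a 1.95-fold difference.

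Of the other hypoxia genes, Adm, which encodes the vasodilator peptide adrenomedullin, rose by 1.31 ± 0.23 (SE, adjusted p = 0.0016). Adm was well above background on 6 of 12 control arrays and all 13 OIR arrays, and its deposited ratio differed by 3.28. Bnip3, a mitophagy receptor, Fam162a, Pfkfb3, Higd1a and Bhlhe40 rose by 0.84, 0.75, 0.58, 0.54 and 0.41 on the log2 scale. The deposited differences of Pfkfb3 and Bhlhe40 were 0.93 and 0.75. The test was not passed by 20 members. Slc2a1, the main glucose transporter of the retina and its vessels, differed by 0.33 (adjusted p = 0.27), and Hk2 by 0.04 (adjusted p = 0.97).

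Promoters of called genes that hold the core of a known response element are shown as a description of the sequence at these genes, with no binding measured. The sequences are from RefSeq (GRCm38.p6), 250 bases before to 50 after the first listed start, 5′ to 3′. Capitals in Adm (chr7:110627407-110627706, plus strand) and Bnip3 (chr7:138909457-138909756, minus strand) mark ACGTG or GCGTG on either strand, the core bound by hypoxia-inducible factors.
Adm: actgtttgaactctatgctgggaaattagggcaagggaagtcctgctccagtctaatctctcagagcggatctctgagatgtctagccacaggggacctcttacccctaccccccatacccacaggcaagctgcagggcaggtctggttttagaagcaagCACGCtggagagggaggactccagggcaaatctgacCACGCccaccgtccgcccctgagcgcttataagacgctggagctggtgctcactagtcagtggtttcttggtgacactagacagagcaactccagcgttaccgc
Bnip3: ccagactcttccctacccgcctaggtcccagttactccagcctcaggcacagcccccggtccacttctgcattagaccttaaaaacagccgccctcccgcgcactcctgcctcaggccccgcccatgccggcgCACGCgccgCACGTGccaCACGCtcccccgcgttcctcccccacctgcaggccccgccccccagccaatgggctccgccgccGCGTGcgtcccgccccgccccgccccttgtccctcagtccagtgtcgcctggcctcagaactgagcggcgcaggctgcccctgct
Such a core was in 43.8% of 27025 gene promoters of this length, in 20 of the 23 promoters found for the hypoxia list, and in 5 of the 6 found for its 9 called genes. The 300 bases of Vegfa held none.

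Most called glycolysis genes rose, and all called respiratory chain genes fell. Of 20 glycolysis genes 5 rose (1.64% of all genes), Pfkp, Slc16a3, Pfkl, Pfkfb3 and Gpi1, and 1 fell (0.643%), Ldhb. Pfkp, a phosphofructokinase, ranged over 0.10 to 0.81 (median 0.54) in control and 1.06 to 2.29 (median 1.71) in OIR retinas, without overlap, a difference of 1.18 ± 0.11 (SE, adjusted p = 3.8e-07). Slc16a3, a lactate exporter, also separated the groups, 0.08 to 0.69 (median 0.34) against 0.69 to 2.08 (median 1.61), by 1.17 ± 0.11 (SE, adjusted p = 2.1e-07). The fall of Ldhb, the lactate dehydrogenase subunit that favours pyruvate, was -0.43 ± 0.09 (SE, adjusted p = 0.011) and lost the call with slide as a block (adjusted p = 0.074) and in the deposited ratio (0.085). Of 19 respiratory chain genes none rose and 4 fell (0.643% of all genes), with 18 of 19 differences below 0 and a median of -0.27. The complex I subunit Ndufs1 fell by 0.31 ± 0.05 (SE, adjusted p = 0.00075), with 10 of 13 OIR retinas below every control retina. Uqcrc2, Cox5a and Atp5b fell by 0.27, 0.54 and 0.25 (Atp5b by 0.41 in the deposited ratio, adjusted p = 0.15), and with slide as a block Cox5a and Atp5b were no longer called (adjusted p = 0.071 and 0.15). With sex as a covariate Cox5a and Uqcrc2 missed the threshold (adjusted p = 0.063 and 0.055).

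Some genes of the vessel wall rose, and none of them fell. Of 28 endothelial genes 10 rose and none fell (median 0.26), and 7 of the differences lay below 0. Of 17 tip cell genes 4 rose, and of 18 mural cell genes 5 rose, against 1.64% of all genes. The endothelial list holds genes that the paper reports as lower in OIR on P12, and the paper describes Cd34 as higher on P17. Of these P12 falls, Cd34, Adgre5, Arap3 and Ets1 were called higher on P17 here, and Robo4, Ptprb and Mmrn2 were not called. Cd93, a glycoprotein of growing endothelium, ranged over 0.72 to 2.07 (median 1.39) in control and 2.57 to 3.53 (median 3.07) in OIR retinas, with no overlap, and rose by 1.63 ± 0.14 (SE, adjusted p = 4.5e-08). Egfl7, secreted by endothelium, ranged over 0.71 to 1.43 (median 0.95) against 1.69 to 2.55 (median 2.15) and was likewise separate, by 1.09 ± 0.09 (SE, adjusted p = 4.5e-08). Vwf, which carries clotting factor in plasma, rose by 0.97 ± 0.12 (SE, adjusted p = 2.3e-05), and Eng, a TGF-beta co-receptor of endothelium, by 0.59 ± 0.08 (SE, adjusted p = 9.4e-05). The deposited differences of Vwf and Eng were 1.53 and 1.48. Pecam1, the first gene of the list, differed by 0.06 (adjusted p = 0.36) and Cdh5, the endothelial cadherin, by 0.27 (adjusted p = 0.38), although Cdh5 passed in the retina channel alone (0.44, adjusted p = 0.00044). Plvap, of fenestrated endothelium, rose by 0.29 (0.71 in the deposited ratio), a call lost with slide as a block (adjusted p = 0.061).

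Tip cells lead a sprout, and their secreted marker Esm1 ranged over -2.24 to -0.47 (median -1.18) in control and -0.47 to 1.27 (median 0.22) in OIR retinas. In 12 of 13 OIR retinas Esm1 was above every control retina, and it rose by 1.56 ± 0.20 (SE, adjusted p = 2.4e-05). Esm1 was well above background on 1 of 12 control arrays, so the control level is near the detection limit, and the deposited ratio differed by 5.62. Apln, the apelin peptide of tip cells, was measured on 5 of 12 control arrays, ranged over -1.17 to -0.31 (median -0.79) against -0.10 to 2.02 (median 0.63) without overlap, and rose by 1.42 ± 0.16 (SE, adjusted p = 4.8e-06). Pdgfb, which recruits pericytes, rose by 0.79 ± 0.09 (SE, adjusted p = 8.5e-06), and the guidance receptor Unc5b by 0.58 ± 0.09 (SE, adjusted p = 0.00031). The deposited differences of Apln, Pdgfb and Unc5b were 4.005, 1.29 and 1.01. Of 9 VEGF ligands and receptors Vegfa alone was called, and the receptor genes Kdr and Flt1 differed by 0.47 and -0.12 (adjusted p = 0.55 and 0.84).

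Among mural cell genes Cd248, a pericyte and stromal glycoprotein, ranged over -2.64 to -0.96 (median -2.02) in control and -0.67 to 0.61 (median 0.08) in OIR retinas and did not overlap, with a difference of 1.97 ± 0.18 (SE, adjusted p = 1.2e-07). Higd1b, a pericyte gene, rose by 0.96 ± 0.14 (SE, adjusted p = 0.00024), Tagln, of smooth muscle, by 1.03 ± 0.22 (SE, adjusted p = 0.016), Cspg4, the NG2 proteoglycan, by 0.73 ± 0.16 (SE, adjusted p = 0.021), and Notch3 by 0.63 ± 0.14 (SE, adjusted p = 0.017). In the deposited ratio Cspg4 and Notch3 differed by 2.004 and 1.28. The first genes of the list did not pass, Pdgfrb at 0.31 (adjusted p = 0.13) and Rgs5 at 0.04 (adjusted p = 0.95). Both alpha globins rose, Hba-a1 from 0.77 to 1.97 (median 1.75) to 1.34 to 4.22 (median 3.17) and by 1.38 ± 0.25 (SE, adjusted p = 0.0026). The OIR retinas spread much further than the control retinas for this gene, as the plot of single mice shows. Neither globin kept its call with slide as a block (adjusted p = 0.051 and 0.062). The mean retina-channel level of the 8 measured red blood cell genes was 6.89 to 7.04 in control and 6.93 to 8.43 in OIR retinas, and its part in the vascular rises was not tested.

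**Figure D2:**
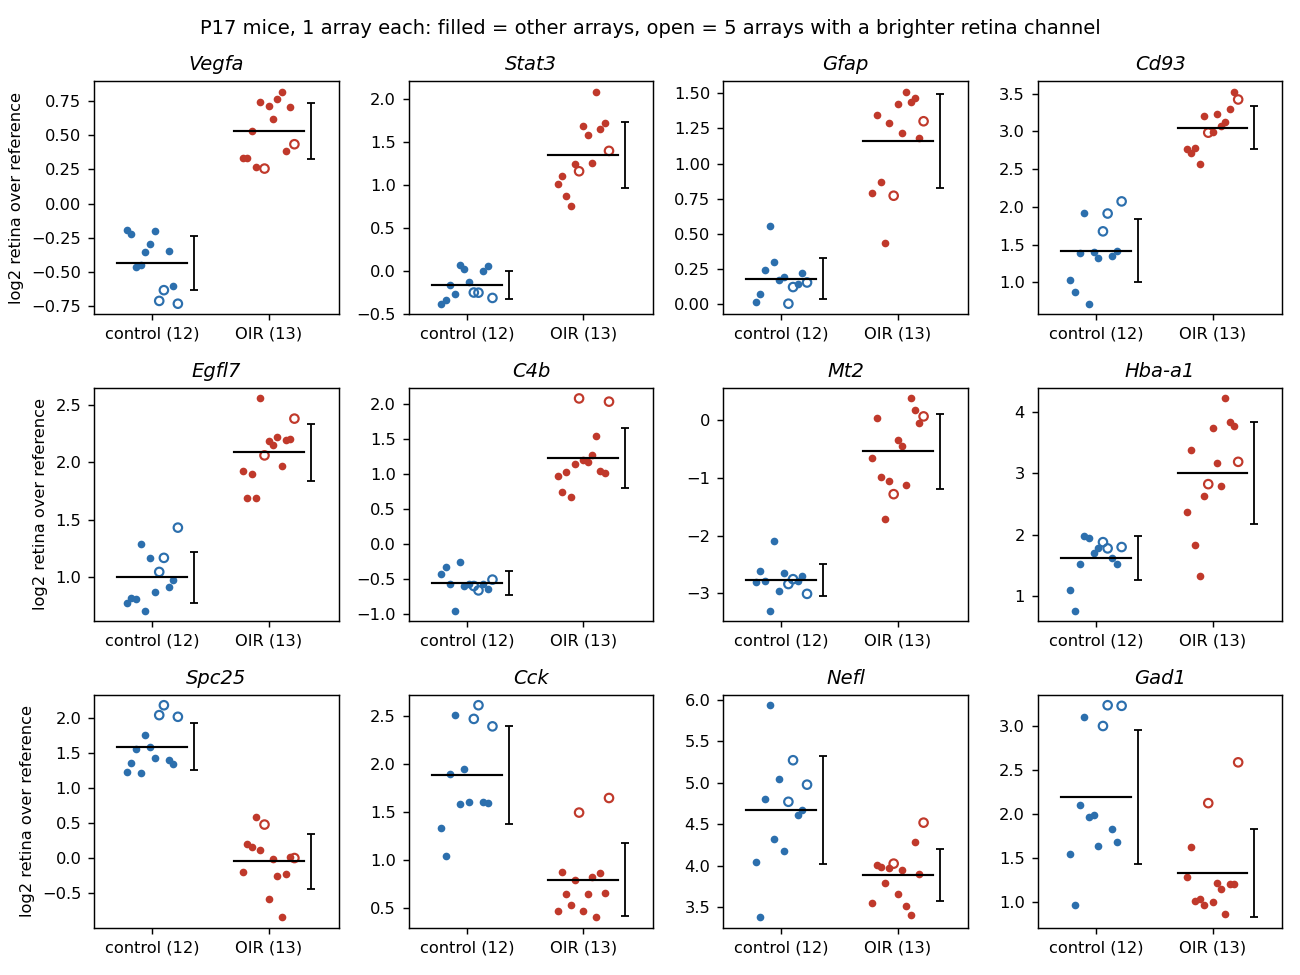
Log2 retina over reference ratio (y axis) of 12 genes in each of 12 control and 13 OIR mice on P17; each point is 1 mouse, open points are the 5 arrays with a brighter retina channel, horizontal lines are group means and bars are ± 1 SD. Vegfa, Stat3, Cd93, Egfl7, C4b, Mt2 and Spc25 separate the groups completely, whereas Gfap, Hba-a1, Cck, Nefl and Gad1 overlap.

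Extracellular matrix genes lay above 0 throughout both lists, and a minority passed the test. All 27 genes of collagens and basement membrane had a difference above 0, with a median of 0.46. Of these 9 were called higher (1.64% of all genes). Fn1, fibronectin, ranged over -4.68 to -3.61 (median -4.30) in control and -3.11 to -1.74 (median -2.50) in OIR retinas, with no overlap, and rose by 1.76 ± 0.13 (SE, adjusted p = 5.8e-09). The basement membrane genes Hspg2, Col4a1 and Col4a2 rose by 1.17, 1.09 and 1.05, and by 1.93, 2.02 and 1.56 in the deposited ratio. Of 19 matrix enzymes 8 rose and all 19 differences were above 0. Pcolce, which enhances procollagen processing, showed the largest rise of any called gene, from -4.71 to -3.56 (median -3.99) to -2.44 to -0.18 (median -1.39), every OIR retina above every control retina. Bmp1, the procollagen protease that Pcolce assists, was also fully separate and rose by 0.95 ± 0.09 (SE, adjusted p = 1.5e-07). Loxl2, a collagen crosslinking enzyme, rose by 1.12 ± 0.18 (SE, adjusted p = 0.00048), or 1.71 in the deposited ratio, and the collagen chaperone Serpinh1 by 1.05 ± 0.14 (SE, adjusted p = 6.3e-05).

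The reactive glia list had 10 rises (1.64% of all genes) and 1 fall (0.643%) among 22 members. It also holds genes expressed outside glia, such as Edn2. Gfap, the filament of astrocytes and activated Mueller cells, ranged over 0.00 to 0.55 (median 0.16) in control and 0.43 to 1.51 (median 1.29) in OIR retinas, 12 of 13 OIR retinas lying above every control retina, and rose by 0.97 ± 0.10 (SE, adjusted p = 1.2e-06). Its deposited difference was 3.01. The filaments Nes and Vim rose by 1.55 ± 0.16 (SE, adjusted p = 9.8e-07) and 1.19 ± 0.10 (SE, adjusted p = 2e-08), both without overlap. Edn2, an endothelin made by stressed photoreceptors, was measured on 3 of 12 control arrays and rose by 1.67 ± 0.21 (SE, adjusted p = 1.6e-05), with a deposited difference of 4.22. Of 14 Mueller cell genes of the resting state none was called (median -0.32; limma's unadjusted p was under 0.05 for 1 higher and 6 lower), Glul, glutamine synthetase, stood at -0.44 (adjusted p = 0.16) and Rlbp1, a retinoid carrier, at -0.72 (adjusted p = 0.22). In the retina channel alone Glul (-0.56, adjusted p = 0.00066) and Rlbp1 (-0.54, adjusted p = 0.0005) were called lower, 2 of 3 Mueller cell genes called lower there (2.82% of all genes), and 1 was called higher (3.06%).

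Signaling through gp130 receptors and STAT3 relays cytokines such as LIF in injured retina. Of 21 genes 5 rose (1.64% of all genes). The ligands Lif, Cntf, Il6, Il11, Clcf1 and Osm were not called, nor were Lifr, Jak1 and Jak2. Lif differed by 0.02 (adjusted p = 0.73) and Il6st, which encodes gp130, by 0.17 (adjusted p = 0.61). Stat3 ranged over -0.38 to 0.07 (median -0.21) in control and 0.76 to 2.08 (median 1.25) in OIR retinas, without overlap, and rose by 1.51 ± 0.12 (SE, adjusted p = 6.8e-09). Its feedback inhibitor Socs3 rose by 0.86 ± 0.14 (SE, adjusted p = 0.001), the oncostatin receptor Osmr by 0.84 ± 0.14 (SE, adjusted p = 0.00087), and Bcl3, an NF-kappaB cofactor measured on 4 of 12 control arrays, by 1.68 ± 0.23 (SE, adjusted p = 9.8e-05). The deposited differences of Osmr and Bcl3 were 1.61 and 4.06. Cebpd, an acute-phase transcription factor, ranged over -3.24 to -1.33 (median -2.46) against -1.31 to 1.89 (median 0.25), and the groups nearly touched without overlapping. The promoter of Socs3 (chr11:117969317-117969616, minus strand) is shown because it was the only one of 4 found for the called genes to hold TTCNNNGAA, the STAT core, in capitals.
Socs3: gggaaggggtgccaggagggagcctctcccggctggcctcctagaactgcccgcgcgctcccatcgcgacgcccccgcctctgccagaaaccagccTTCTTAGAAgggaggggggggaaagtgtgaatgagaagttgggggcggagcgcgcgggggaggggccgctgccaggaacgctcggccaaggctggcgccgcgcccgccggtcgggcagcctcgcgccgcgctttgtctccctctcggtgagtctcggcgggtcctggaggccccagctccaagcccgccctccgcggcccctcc
This core was in 8.47% of all promoters and in 1 of 17 found for the list.

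Metallothioneins bind zinc and copper and respond to metals, glucocorticoids and oxidative stress. Mt2 ranged over -3.30 to -2.10 (median -2.78) in control and -1.71 to 0.38 (median -0.45) in OIR retinas, and Mt1 over -2.59 to -1.77 (median -2.21) against -1.48 to -0.22 (median -0.65). Neither overlapped, and Mt1 rose by 1.44 ± 0.13 (SE, adjusted p = 2.1e-07). The other 6 measured genes of the list were not called. Capitals in the promoters of Mt2 (chr8:94172368-94172667, plus strand) and Mt1 (chr8:94178839-94179138, plus strand) mark TGCACNC or TGCGCNC on either strand, forms of the metal response element.
Mt2: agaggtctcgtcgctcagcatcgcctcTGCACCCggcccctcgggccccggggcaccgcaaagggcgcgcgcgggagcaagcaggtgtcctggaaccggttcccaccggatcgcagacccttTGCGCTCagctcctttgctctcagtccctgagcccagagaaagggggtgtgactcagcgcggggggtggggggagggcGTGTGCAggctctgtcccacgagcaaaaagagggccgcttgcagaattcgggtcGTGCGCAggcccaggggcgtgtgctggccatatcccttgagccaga
Mt1: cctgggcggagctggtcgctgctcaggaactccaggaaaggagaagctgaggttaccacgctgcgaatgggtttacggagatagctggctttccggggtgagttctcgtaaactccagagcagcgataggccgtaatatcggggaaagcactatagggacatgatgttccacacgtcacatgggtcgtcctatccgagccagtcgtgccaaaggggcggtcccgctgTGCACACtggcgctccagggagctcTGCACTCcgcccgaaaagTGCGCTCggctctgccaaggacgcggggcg
Such a site was in 25.6% of all promoters and in 4 of 6 found for the list. Of 15 antioxidant genes Hmox1, heme oxygenase, was the 1 called, at 1.69 ± 0.28 (SE, adjusted p = 0.00075), with 9 of 13 OIR retinas above every control retina and a deposited difference of 2.61.

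Immune genes were called in smaller number in the offset ratio. More microglia and antigen presentation genes were called in the deposited ratio and in the retina channel alone. Of 22 genes of microglia and macrophages 4 were called, although 21 of 22 differences lay above 0 (median 0.33), and 11 were called in the deposited ratio, where 3.25% of all genes were called higher, and in the retina channel alone (3.06%). Lgals3, galectin of activated phagocytes, rose by 1.06 ± 0.19 (SE, adjusted p = 0.0029), and Aif1, measured on 5 of 12 control arrays, by 0.33 ± 0.05 (SE, adjusted p = 0.00062). Cx3cr1, the first gene of the list, stood at 0.19 (adjusted p = 0.63). C4b of the classical complement cascade ranged over -0.96 to -0.27 (median -0.58) in control and 0.66 to 2.08 (median 1.14) in OIR retinas, with no overlap, and the 2 highest OIR values belonged to the bright arrays. Without those arrays the difference was 1.62 against 1.79 with them. H2-Ab1, an MHC class II chain, separated the groups as well, by 0.92 ± 0.08 (SE, adjusted p = 1.2e-07). The other class II genes H2-Aa, H2-Eb1 and Cd74 and the regulator Ciita were not called. They differed by 0.04, 0.07, 0.46 and -0.003 (adjusted p = 0.61, 0.59, 0.59 and 0.98). Of 16 antigen presentation genes 2 were called higher (1.64% of all genes), 9 in the deposited ratio and 8 in the retina channel alone. The deposited differences of Lgals3, Aif1, C4b and H2-Ab1 were 1.64, 1.41, 3.47 and 2.67. Of 19 interferon response genes 1 was called in the offset ratio and 9 in the deposited ratio.

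Of 12 immediate early genes 3 rose (1.64% of all genes), and all 12 differences were above 0 (median 0.41). Nr4a1 rose by 0.96 ± 0.13 (SE, adjusted p = 9.6e-05), Egr1 by 0.75 ± 0.14 (SE, adjusted p = 0.0025) and Jun by 0.67 ± 0.10 (SE, adjusted p = 0.00041). Nupr1 and Eif4ebp1 of the integrated stress response, which restrains translation under stress, rose by 1.83 and 1.04, and by 2.79 and 1.93 in the deposited ratio. Of 26 cell division genes 24 differences lay above 0 but none was called higher. By limma's unadjusted p under 0.05, 6 were higher, and 6 were called higher in the deposited ratio (3.25% of all genes). The single call in the offset ratio was Spc25, a kinetochore gene. It ranged over 1.22 to 2.19 (median 1.49) in control and -0.84 to 0.59 (median 0.00) in OIR retinas, every OIR retina below every control retina.

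The medians of rod and bipolar cell genes depended on the measure, and those of amacrine and ganglion cell genes were below 0 in each. In the offset ratio rod and cone genes stood at 0.00 and -0.01, and Sag, rod arrestin, differed by -0.13 (adjusted p = 0.83). Inner retinal lists had medians of -0.24 for 16 amacrine, -0.24 for 16 bipolar and -0.26 for 18 ganglion cell genes. In the retina channel alone the rod median, -0.26, was as low as those of amacrine, bipolar and ganglion cell genes, -0.19, -0.24 and -0.19. In the deposited ratio the rod and bipolar medians were 0.19 and 0.20, and those of amacrine and ganglion cell genes -0.21 and -0.18. In the offset ratio 2 amacrine, 2 ganglion and 0 bipolar cell genes and 1 of 24 rod genes fell, against 0.643% of all genes. In the same measure 1 bipolar cell gene, Rgs11, rose by 0.57 (adjusted p = 0.034). The retina channel alone called 6 of 16 amacrine, 7 of 18 ganglion and 4 of 16 bipolar cell genes and 2 of 24 rod genes lower, where 2.82% of all genes were called lower, and 1 ganglion and 1 bipolar cell gene higher. The deposited ratio called 3 amacrine, 2 ganglion, 2 bipolar and 0 rod genes lower (1.88% of all genes). The bipolar list holds Tacr3, which the paper lists among its largest falls on P17.

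Cck, cholecystokinin, a neuropeptide of amacrine cells, ranged over 1.04 to 2.61 (median 1.75) in control and 0.40 to 1.64 (median 0.65) in OIR retinas, 11 of 13 OIR retinas below every control retina. It fell by 1.09 ± 0.17 (SE, adjusted p = 0.00061), and by 1.23 in the deposited ratio. Cartpt, a peptide of amacrine and some ganglion cells, fell by 0.70 (adjusted p = 0.0068), and Nefl, the light neurofilament of ganglion cell axons, by 0.77 (adjusted p = 0.048). Nefl ranged over 3.38 to 5.93 (median 4.72) in control and 3.41 to 4.52 (median 3.96) in OIR retinas, and every OIR value lay inside the control range. The deposited differences of Cartpt and Nefl were of the opposite sign, 0.20 and 0.15, and neither passed there (adjusted p = 0.88 and 0.91), whereas both were called lower in the retina channel alone, at -0.60 and -0.62. Nefl was not called without the bright arrays (adjusted p = 0.12) or with sex as a covariate (0.089). The GABA-synthesizing enzyme Gad1 had an offset difference of -0.86 that missed the threshold (adjusted p = 0.11), and in the retina channel alone it was called at -0.70 (adjusted p = 0.00059).

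No member of the synaptic vesicle, GABA and glycine receptor, glutamate receptor or voltage-gated channel lists was called in the offset ratio (22, 20, 25 and 37 genes, medians -0.23, -0.21, -0.13 and -0.16). By limma's unadjusted p under 0.05, 7, 10, 8 and 14 of them were lower and 0, 0, 0 and 0 higher. In the retina channel alone 3, 6, 0 and 9 were called lower and none higher (2.82% of all genes were called lower there). In the deposited ratio 1, 2, 0 and 5 were called lower and none higher (1.88% of all genes lower). The GABA and channel lists hold Gabrb1, Kcnd2, Kcne1l and Scn11a, which the paper lists among its largest falls on P17. Their counts are therefore not independent of the paper's result on the same arrays. The presynaptic genes Syp and Syn1 differed by 0.14 and -0.03 (adjusted p = 0.86 and 0.93). Of 6 genes called lower in the offset ratio with a deposited difference above 0, Nefl and Cartpt were 2. No gene called higher had a deposited difference below 0.

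**Figure D3:**
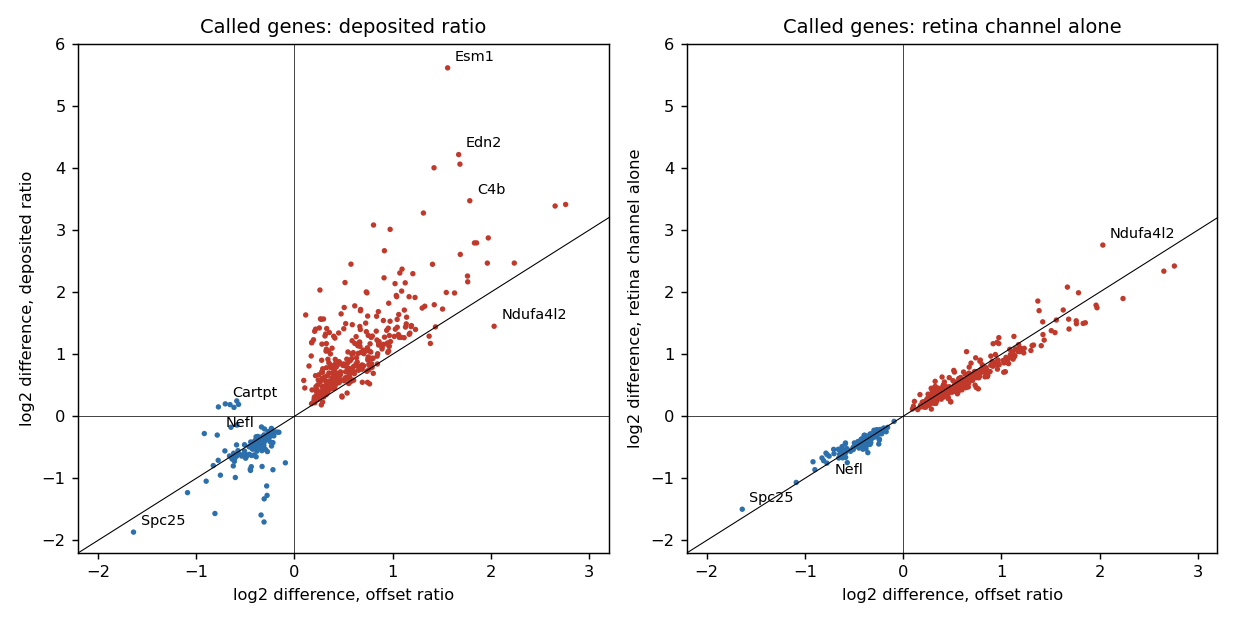
Log2 OIR minus control difference in the offset ratio (x axis) against the deposited ratio (left, y axis) and the retina channel alone (right, y axis) for the 483 called genes, red higher and blue lower; the diagonal marks equal values. Most rises are larger in the deposited ratio, with Esm1 at 5.62 against 1.56, and 6 blue points including Nefl and Cartpt lie above 0 there, whereas the retina channel alone keeps every direction.

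Several falls belonged to tissue next to the retina or to lipid metabolism. Rpe65, the retinoid isomerase of the pigment epithelium, fell by 0.81 (adjusted p = 0.032; -1.57 in the deposited ratio) and Enpp2, autotaxin, by 0.90 (adjusted p = 0.00044). Rpe65 lost the call with slide as a block (adjusted p = 0.079) and without the bright arrays (0.081), and 12 of 14 genes of the pigment epithelium and choroid list lay below 0. The mean retina-channel level of that list was 6.91 to 7.46 in control and 6.69 to 7.57 in OIR retinas, and its part in these falls was not tested. Lens RNA varied by mouse, Cryaa, a lens crystallin, ranging over -0.07 to 3.56 (median 0.31) in control and -0.08 to 3.05 (median -0.02) in OIR retinas (adjusted p = 0.74). Of 20 lens genes 16 differences lay below 0, and 1 gene was called lower (0.643% of all genes), Bfsp2 at -0.31 (adjusted p = 0.016). Without the bright arrays 0 lens genes were called lower. At least 6 arrays showed 3 of 7 muscle genes and 0 of 5 cornea genes well above background, and Ckm and Krt5 were so on no array. Of 17 genes of cholesterol synthesis and lipid transport 3 fell (0.643% of all genes), Idi1 by 0.44, Fdps by 0.34 and Sqle by 0.30. All are enzymes of sterol synthesis, and with slide as a block Idi1 and Fdps missed the threshold (adjusted p = 0.052 and 0.073).

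**Figure D4:**
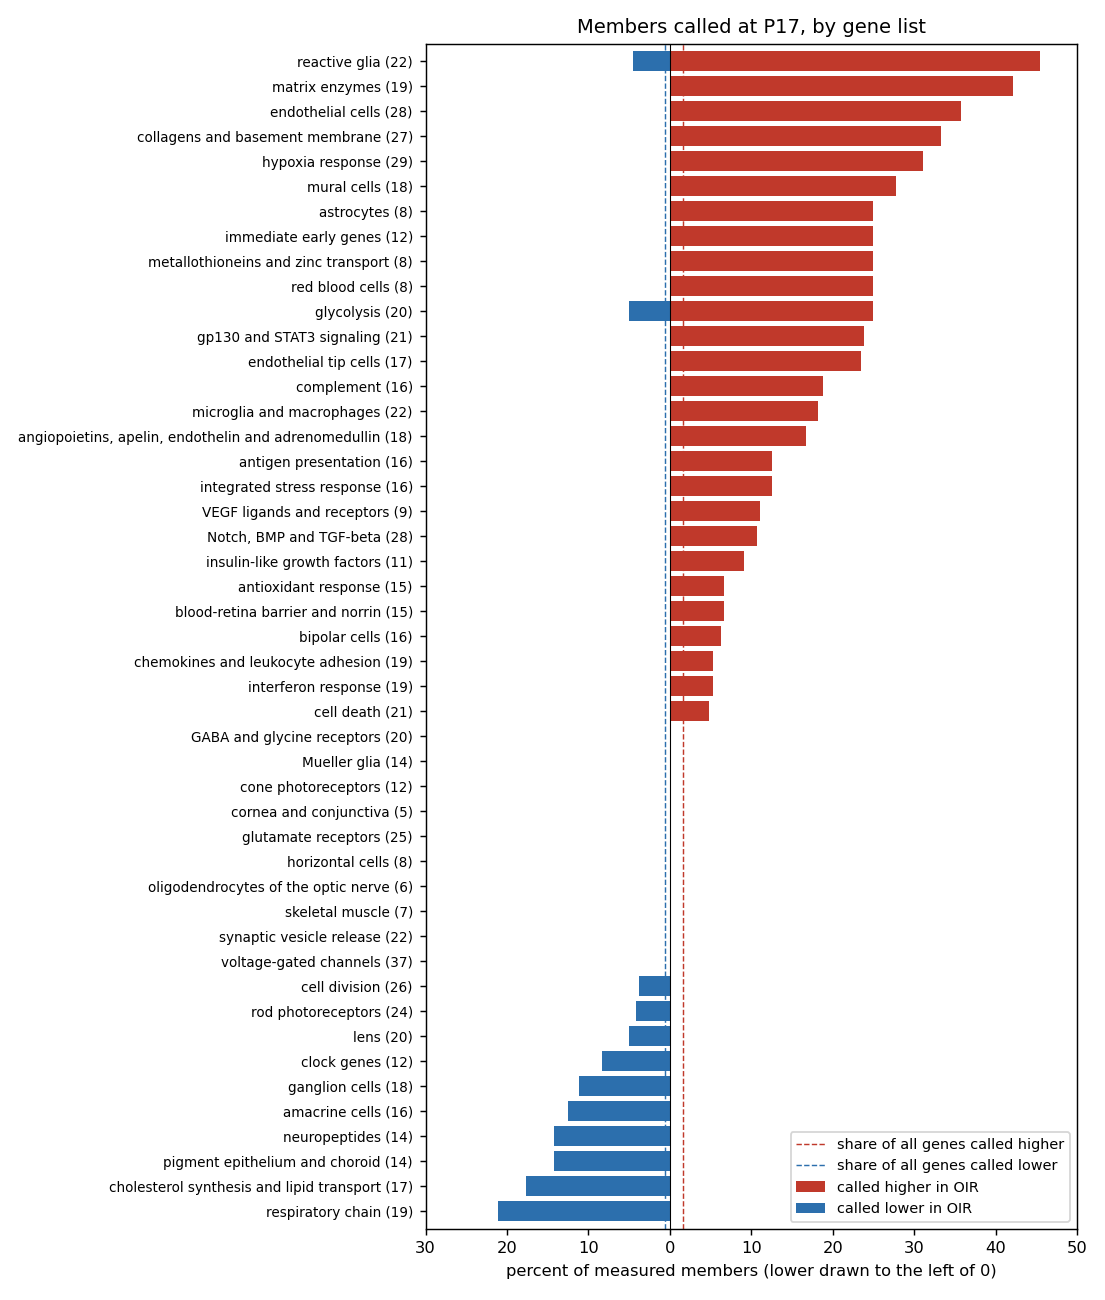
Percent of the measured members of 47 gene lists (number measured in brackets) called higher (red, to the right) or lower (blue, drawn to the left) in P17 OIR retinas; dashed lines give the shares over all genes, 1.64% higher and 0.643% lower. Reactive glia (10 of 22) and matrix enzymes (8 of 19) have the longest red bars and the respiratory chain (4 of 19) the longest blue bar. The lists were chosen with earlier results of these data known, so the shares are descriptive.

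The P17 effect was set against the same contrast on P12, at the end of oxygen exposure, and on P28, with the difference of effects tested in 1 fit over all 6 groups. Over genes, 222 (1.05%) differed from P12 and 0.581% from P28, and 95 genes differed from both in 1 direction. Cd248 had an effect of -0.32 on P12, 1.97 on P17 and 0.05 on P28. Nes went from -0.10 to 1.55 and -0.01, and Msn, moesin, which links actin to the membrane, from -0.23 to 1.76 and 0.21. Cd93 was called lower on P12, at -1.03 (adjusted p = 6.4e-07), and higher on P17, with a difference between the days of 2.66. C4b and Edn2 stood at 1.58 and 1.36 on P28, and their differences between P17 and P28 did not pass the test (0.20 and 0.31, adjusted p = 0.54 and 0.46). These values are in the offset ratio, which draws dim spots towards 0. C4b was well above background on 9 of 12 P17 control arrays, and its deposited difference on P17 was 3.47. The paper reports a larger rise of C4b on P17 than on P28, and it lists Edn2 among its largest rises on P17 but not on P28. Whether C4b or Edn2 declined in the deposited ratio was not examined gene by gene here.

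**Figure D5:**
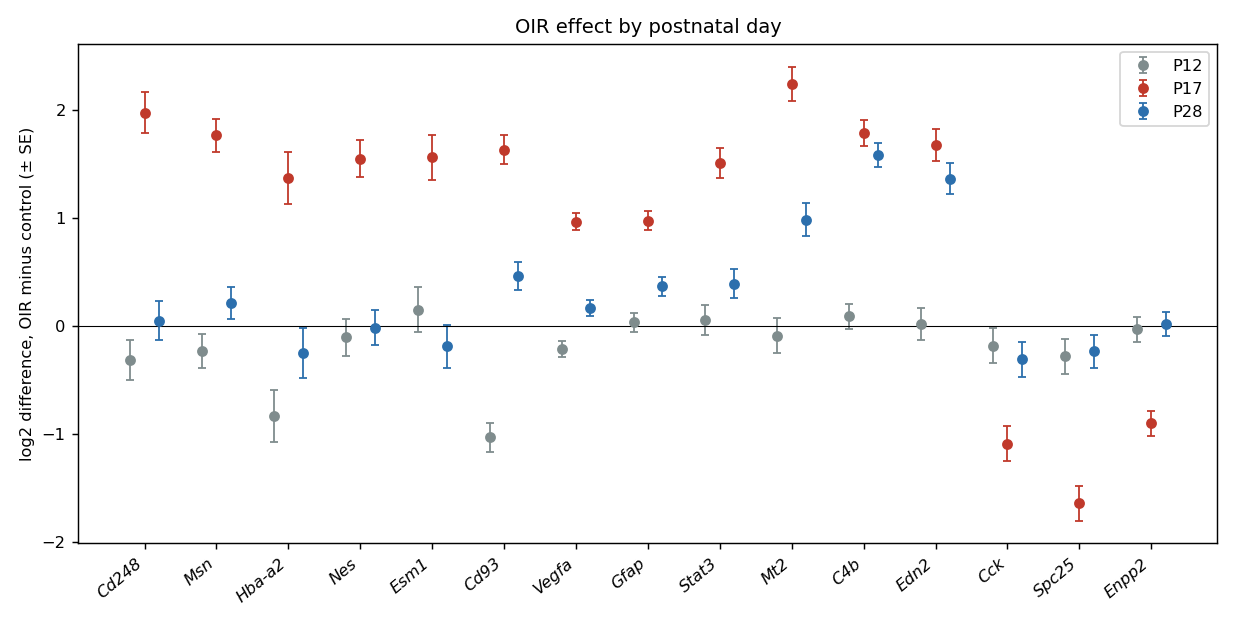
Log2 OIR minus control difference ± SE (y axis) of 15 genes on P12 (grey), P17 (red) and P28 (blue), from 1 fit over all 6 groups. Most effects are near 0 on P12, with Cd93 (-1.03) and Hba-a2 (-0.83) below it, and partly or wholly gone by P28. C4b and Edn2 stand at 1.58 and 1.36 on P28 in the offset ratio, which draws dim spots towards 0.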

How the data were processed

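Retina RNA and a common reference RNA were hybridised together to 2-colour Agilent 8x60K mouse arrays, and spot intensity was extracted by the authors with Feature Extraction 10.7.3.1. The deposited log2 ratio equals log2 of the processed Cy3 over Cy5 signal within 0.001 for at least 99.7% of probes on each P17 array. The authors normalized the data in GeneSpring GX, by a method not given in the sources used here, and tested groups there with a moderated test and Benjamini-Hochberg adjustment. The scanner's own log10 ratio, deposited in the same files, served as an alternative. From the deposited median intensity of each spot, background was corrected by normexp with an offset of 50, ratios were normalized by loess within arrays, outlier spots were left out, and spots of a probe were averaged. Groups were compared with limma 3.58.1 in R 4.3.3 (two-sided, Benjamini-Hochberg over all 55681 probes, adjusted p under 0.05). Probes were named through RefSeq accessions (28026 probes, 21154 genes), and a gene stands for its brightest probe in the retina channel. No gene had probes called in opposite directions.

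Named were the 12 largest rises and falls, up to 4 called members per list and direction, the first 2 genes of each cell type or neuronal list, and the 6 genes differing most from both other days, and other genes were added after their values were seen. Some genes under this rule are not reported here. The members and lists were chosen with earlier results of these data known. The fits were tested on simulated data, drawn independently for each probe and array. Those data held no slide, litter or bright-array effect, so that test does not cover them. The number of arrays limits the precision.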

Additional observations from a re-analysis of the deposited data

Results flagged for a closer look

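The effect of OIR differed between days by the test of the difference itself. The 6 genes with the largest differences from both days all rose more on P17. On the log2 scale the P17 effect of Cd248 differed by 2.29 from P12 and 1.92 from P28. For Msn the differences were 1.996 from P12 and 1.55 from P28, for Esm1 1.41 from P12 and 1.75 from P28 and for Nes 1.65 from P12 and 1.56 from P28. The globins Hba-a1 and Hba-a2 differed by 2.08 from P12 and 1.53 from P28, and by 2.20 from P12 and 1.62 from P28.

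The reference channel, which holds the same RNA on all arrays, had 1 called probe. It was that of Ndufa4l2, 0.69 higher on the log2 scale on OIR arrays than on control arrays (adjusted p = 0.00089). The cause was not tested. A ratio of the retina to this channel understates the retina-channel difference of that gene.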

How the results depend on the processing

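The 631 called probes (447 higher, 184 lower) became 4 (4 higher, 0 lower) with median centring in place of loess, where 1124 probes had an unadjusted p under 0.05. They became 1040 (672 higher, 368 lower) without background subtraction, 917 (678 higher, 239 lower) with an offset of 0, 1471 (929 higher, 542 lower) in the deposited ratio and 1627 (1000 higher, 627 lower) in the scanner's log ratio. Quantile normalization between arrays gave 1128 (614 higher, 514 lower), the retina channel alone 1670 (885 higher, 785 lower), slide as a fixed block 832 (547 higher, 285 lower), slide as a random block 1013 (649 higher, 364 lower), array weights 1572 (851 higher, 721 lower) and the filter on dim probes 863 (557 higher, 306 lower). Alternatives chosen after seeing the data left out the 5 bright arrays and gave 864 (528 higher, 336 lower) in the offset ratio, 1544 (980 higher, 564 lower) in the deposited ratio and 1954 (961 higher, 993 lower) in the retina channel alone. Keeping outlier spots, sex as a covariate, trend and robust estimation, and 1 fit over all groups gave counts within 1.5 times. Probes differing from P12 rose in number to 775 in the deposited ratio, 524 with slide as a block and 876 with array weights, and those differing from P28 to 325 in the deposited ratio and 422 with array weights. Nefl reversed from -0.77 to 0.15 in the deposited ratio and in the scanner's log ratio and to 0.065 in the deposited ratio without the bright arrays, and Cartpt from -0.70 to 0.20, 0.20 and 0.10. Of the named genes, 90 lost the call with median centring, 12 with slide as a block, 15 without the bright arrays, 11 with sex as a covariate and 10 in the deposited ratio. The causes were not tested. No paired analysis was possible because every mouse number occurs once. Probes not well above background have ratios limited by the offset.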

Other observations

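Interval probes, which lie in transcribed regions without a gene name in the files, gave 23 calls among 16194 (0.142%), 12 higher and 11 lower. Of 483 called genes, 393 were measured above background on all 25 arrays in Cy3. Outside the lists, Fabp3, a fatty acid carrier, fell by 0.61 ± 0.07 (SE, adjusted p = 1.4e-05), with no OIR retina inside the control range. Stmn1 and Stmn3, regulators of microtubules in neurons, fell by 0.56 and 0.57 (adjusted p = 0.0034 and 0.013), and in the deposited ratio they stood at -0.61 and 0.19. These genes were chosen after their values were seen.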
